A study of Mus musculus with 8 samples.

Results

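The Sprouty, Spred and MAPK feedback genes were followed in the retinas of aged mice, and the question addressed was whether Spry2 differed between the genotypes alone or together with the pathway it belongs to. The 10 genes were Spry1, Spry2, Spry4, Spred1, Spred2, Spred3, Dusp4, Dusp6, Etv4 and Etv5, found by matching the accession of each array probe to a gene table that named 22911 genes of the array. They were represented by 15 of the 56605 probes of the array, with 2 probes each for Spry2, Spred1, Spred2, Spred3 and Etv4 and 1 probe each for the other 5 genes. Spry2 was selected on the processed signal of these same arrays, for its difference between the genotypes, so that its values are described here without a test. The other 9 genes were chosen for their role in the pathway.

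RNA of whole retina was hybridized to 8 one-color arrays. There were 4 samples from mice homozygous for an Mrp4 knockout (Mrp4-null) and 4 from wild-type (WT) mice, all 46 to 55 weeks old by the sample labels. The knockout line had a C57BL/6J background, no cell type restriction of the deletion is named, and no treatment is stated for any sample. Retinas of 3 mice are mentioned in the methods without saying if they were pooled, so that p-values measure the spread between samples, which may be partly technical.

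The gene targeted by the knockout, Abcc4, which encodes the efflux transporter MRP4, was read by the probe A_52_P630867. Its log2 signal was 10.84, 10.71, 10.64 and 10.80 under the knockout label and 6.62, 7.13, 6.54 and 7.02 on the WT arrays. The signal was thus higher in the samples labelled as knockout, by 3.92 on the log2 scale (SE 0.14, limma adjusted p = 1.36e-05), which goes against the label. A probe outside the deleted part checks nothing, and the position of this probe relative to the deletion is not given in the sources used here. Every direction below therefore follows the labels as deposited, and the groups are called arrays labelled Mrp4-null and WT arrays. Both genotypes lay on 1 slide, each in a row of its own, so that genotype and slide row cannot be told apart.

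The arrays were alike in quality, with between 66.0% and 69.9% of the probes well above background, but 2 arrays were dimmer. The 75th percentile of the signal intensity was 497 for Mrp4-null sample 2 and 514 for WT sample 3, against 566 to 786 for the other arrays. Markers of rods and cones, the photoreceptors that make up most cells of the mouse retina, were well above background on all 8 arrays. The mean log2 signal of the 5 rod genes was 16.39 to 16.47 on the arrays labelled Mrp4-null and 16.32 to 16.44 on the WT arrays. Lens genes, which mark a tissue next to the retina, were also present, with 7 of 8 well above background on every array and a mean of 5.92 to 8.48 under the knockout label and 7.23 to 9.74 on the WT arrays. The endothelial genes averaged 6.41 to 7.16 and 6.93 to 7.31, the astrocyte genes 6.45 to 7.05 and 5.93 to 6.50, and the bipolar cell genes 13.96 to 14.06 and 13.82 to 13.94, respectively, so that the bipolar cell means did not overlap between the groups. Xist was above background on 4 arrays labelled Mrp4-null and on 2 WT arrays, whereas Y-linked probes were above background on 0 and 3 arrays, so that sex-linked signals were not balanced between the groups. The part of these differences in the values below was not tested, and in whole tissue fewer cells of a type and less RNA per cell cannot be told apart.

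Growth factors such as the fibroblast growth factors bind receptor tyrosine kinases, which act through the adaptors GRB2 and SOS on the small GTPase Ras and then through RAF, MEK and ERK, the mitogen-activated protein kinase (MAPK) cascade. ERK activity switches on its own inhibitors. The Sprouty proteins interfere with the steps around Ras and RAF, the related Spred proteins hold Ras inactive together with neurofibromin, and the phosphatases DUSP4 and DUSP6 remove the activating phosphates from ERK. ETV4 and ETV5 are ETS-family transcription factors whose genes are switched on by fibroblast growth factor signaling. Because these genes are commonly induced together, they are used as a joint readout of the pathway, in the eye as elsewhere.

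The 250 bases upstream of the transcription start of Spry2, the member with the large difference, and of Dusp6, a widely used target of the cascade, are shown to let the control regions of these genes be set side by side. Both are from RefSeq on the GRCm38.p6 build, Spry2 at chr14:105896820-105897069 on the minus strand and Dusp6 at chr10:99262981-99263230 on the plus strand, and capitals mark the letters CGGAAG on either strand, a form of the core that ETS factors bind.
Spry2: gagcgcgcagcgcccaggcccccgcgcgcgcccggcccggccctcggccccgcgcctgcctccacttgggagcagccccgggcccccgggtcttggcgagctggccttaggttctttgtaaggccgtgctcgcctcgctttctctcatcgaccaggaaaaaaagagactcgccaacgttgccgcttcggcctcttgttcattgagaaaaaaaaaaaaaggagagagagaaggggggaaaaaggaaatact
Dusp6: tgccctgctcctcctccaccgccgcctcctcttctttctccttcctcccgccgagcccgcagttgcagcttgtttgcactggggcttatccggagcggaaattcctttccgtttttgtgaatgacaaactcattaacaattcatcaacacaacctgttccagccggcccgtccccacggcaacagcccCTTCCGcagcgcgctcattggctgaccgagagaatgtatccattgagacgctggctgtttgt
RefSeq promoters were given for 7 of the 10 members. In the 250 bases before the start, CGGAAG was found once each in Dusp6, Spred1 and Spred2 and not in Spry1, Spry2, Spred3 or Etv5. It occurred in the same window in 13.6% of all 32851 promoters. The cyclic AMP response element TGACGTCA was present in 1.55% of all promoters and in none of these 7 genes. Of the Spry2 bases shown, 62.4% were G or C, and of the Dusp6 bases 56.4%. These matches describe letters in a window and not binding.

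Spry2, an inducible inhibitor of receptor tyrosine kinase signaling that lies on chromosome 14, gave a large difference at 1 of its 2 probes. The probe A_51_P445153 had a log2 signal of 7.33, 6.96, 7.15 and 7.37 under the knockout label and of 5.32, 5.28, 5.53 and 5.06 on the WT arrays. The groups were far apart, with the lowest array labelled Mrp4-null above the highest WT array. The means were 7.20 ± 0.19 and 5.30 ± 0.20 (SD, n = 4 each), a difference of 1.91 on the log2 scale (SE 0.13) or 3.75-fold. Among the 37085 probes retained, 46 had a larger difference in either direction. This value depended on the background correction, since with the normexp method in place of the scanner's own correction the difference was 1.13.

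The same gene read by its other, brighter probe differed less. A_52_P368532 had a log2 signal of 10.37, 10.34, 10.52 and 10.59 under the knockout label and of 10.28, 10.28, 10.09 and 10.24 on the WT arrays. All 4 arrays labelled Mrp4-null were above all WT arrays here too, but by a small margin. The means were 10.45 ± 0.12 and 10.22 ± 0.09 (SD, n = 4 each), so that the difference was 0.23 on the log2 scale (SE 0.09) or 1.18-fold. In size it was larger than the difference of 86.4% of the retained probes.

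**Figure D1:**
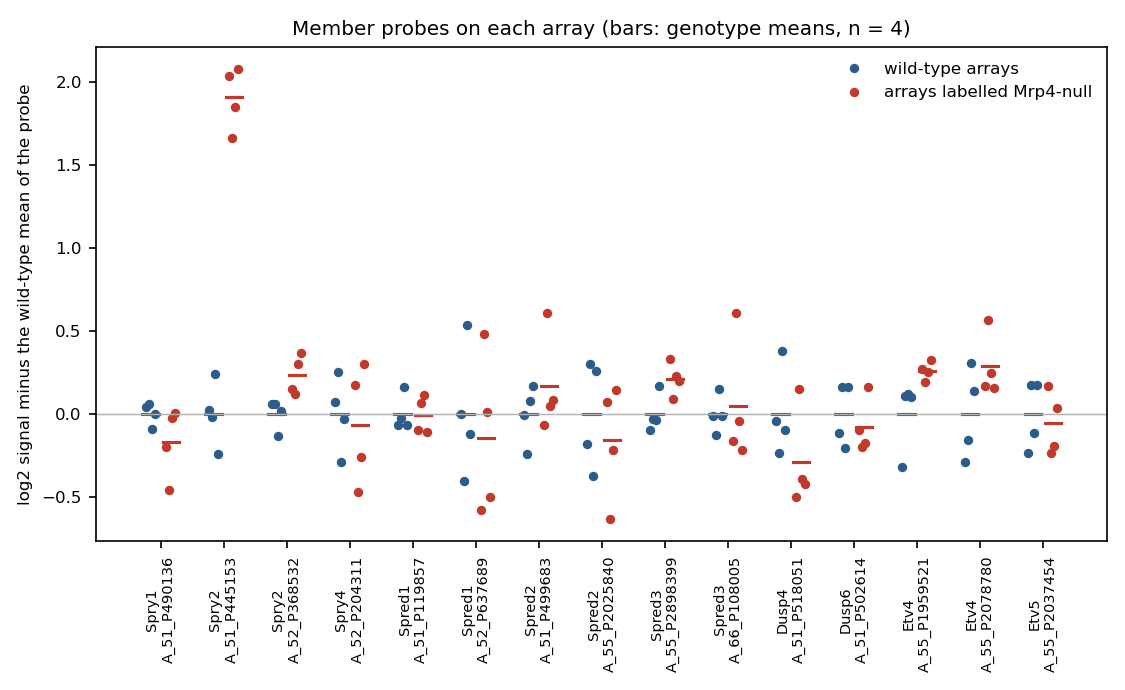
Log2 normalized signal of each of the 15 probes on each array, drawn relative to the mean of the WT arrays for that probe, with points for single arrays and bars for the mean of the 4 arrays of a genotype. The 4 arrays labelled Mrp4-null stand far above the WT arrays at the Spry2 probe A_51_P445153, while at 12 of the 13 probes of the other genes the groups overlap.

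The gap between the differences of the Spry2 probes was 1.67 on the log2 scale. Of the 4563 genes with exactly 2 retained probes, 5 had a larger gap, and the median gap was 0.07. In 25 such genes at least 1 probe was called changed, and in 16 of them the second probe was not called. The probe sequences are not in the files used here, and which exon or transcript end each Spry2 probe reads was not analysed here. Among the other members with 2 probes, both Etv4 probes were higher on the arrays labelled Mrp4-null, by 0.26 and 0.29, both Spred3 probes were higher, by 0.21 and 0.05, and both Spred1 probes were lower, by 0.01 and 0.15 on the log2 scale. The Spred2 probes differed by 0.17 and -0.16, and without Mrp4-null sample 2 by 0.02 and -0.0013.

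**Figure D2:**
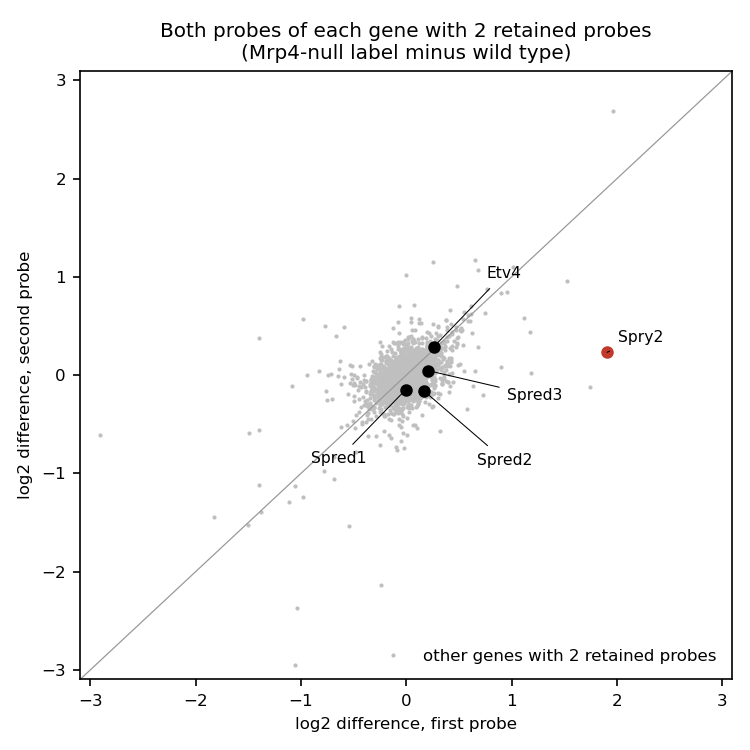
Log2 difference (arrays labelled Mrp4-null minus WT) at one probe against the difference at the other probe, for the 4563 genes with 2 retained probes, with the diagonal marking equal differences. Spry2 lies at 1.91 and 0.23, far from the diagonal, while Etv4, Spred1, Spred2 and Spred3 lie within 0.3 of zero on both axes.

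No probe of the other 9 feedback genes was called changed. A probe was called where its fold change was 1.5 or more and its limma adjusted p, over all retained probes, was under 0.05, which held for 202 probes or 0.545% of all. The 13 probes of Spry1, Spry4, Spred1, Spred2, Spred3, Dusp4, Dusp6, Etv4 and Etv5 were well above background on all 8 arrays, and 0 were called by limma or by the local pooled error test, with 2 at an unadjusted p under 0.05, against 6.46% of all probes. Of these 13 probes, 5 had a higher mean under the knockout label and 8 a lower one. Their median difference was -0.06 on the log2 scale, and that of all retained probes was -0.01. Regardless of sign, the median difference was 0.16 for the 13 probes and 0.08 for all retained probes. The largest fold change that a 95% interval of any of them included was 1.70. The lowest adjusted p was 0.748. Of these 13 probes, 1, of Etv4, had groups that did not overlap, where 4.79% of all probes did. The Spry2 probe A_51_P445153 met the rule for a call, which its choice as a member had used.

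**Figure D3:**
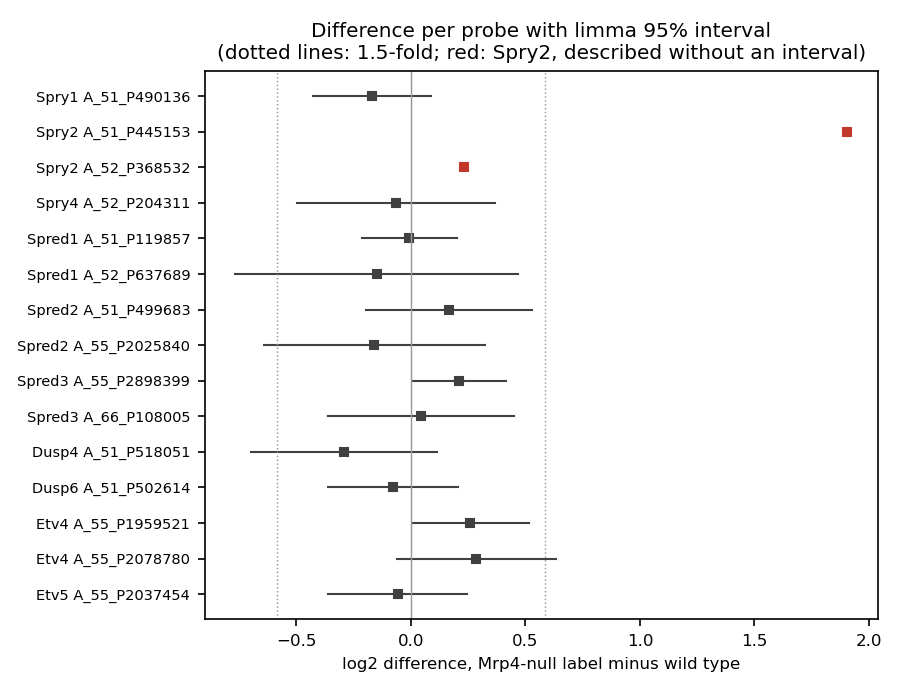
Log2 difference (arrays labelled Mrp4-null minus WT) of each probe, with squares for the estimate and lines for the limma 95% interval, and with dotted lines at a fold change of 1.5 either way. The 13 probes of genes other than Spry2 lie between -0.29 and 0.29, and no interval reaches beyond a fold change of 1.70.

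No probe of the remaining Sprouty genes was called changed. Spry1, on chromosome 3, encodes an inhibitor of the same kind that is known for its part in kidney development. Its probe A_51_P490136 had a log2 signal of 9.33, 9.07, 9.50 and 9.53 under the knockout label and of 9.57, 9.59, 9.44 and 9.53 on the WT arrays. Mrp4-null sample 2 was the lowest, and the groups overlapped. The difference was -0.17 (SE 0.11, 95% interval -0.43 to 0.09, limma adjusted p = 1.00), and without Mrp4-null sample 2 it was -0.07. Spry4, on chromosome 18, encodes a Sprouty protein that is likewise induced by growth factors. Its probe A_52_P204311 had a log2 signal of 6.27, 5.62, 5.84 and 6.40 against 6.16, 6.34, 5.81 and 6.06. The arrays of both groups were interleaved, and the difference was -0.06 (SE 0.19, limma adjusted p = 1.00). The family's remaining gene, Spry3, which lies on chromosome X, was named after its values were seen, to complete the family. The Spry3 probe A_51_P476127 had a log2 signal of 8.36, 7.83, 8.28 and 8.15 against 7.77, 7.67, 7.86 and 7.71, a difference of 0.40 (SE 0.12) at a limma adjusted p of 0.403. Of these arrays, Mrp4-null sample 2 fell within the WT range. Y-linked probes were above background on 0 arrays labelled Mrp4-null and on 3 WT arrays, so that the sexes were not balanced between the groups. The part of sex in the Spry3 values was not tested.

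No probe of the Spred genes, whose products dampen Ras signaling at the membrane, passed the test. Spred1, on chromosome 2, was read by A_51_P119857 at 10.91, 11.07, 11.12 and 10.90 under the knockout label and at 10.94, 10.98, 11.17 and 10.94 on the WT arrays, all on the log2 scale. This was the closest match between the groups, with a difference of -0.01 (SE 0.09). The other Spred1 probe, A_52_P637689, varied more between arrays, from 6.99 to 8.04 under the knockout label and from 7.16 to 8.10 on the WT arrays, and its difference was -0.15 (SE 0.27). The 2 dimmer arrays were the highest of their groups at this probe. Spred2, on chromosome 11, was read at 5.24, 5.92, 5.35 and 5.39 against 5.30, 5.07, 5.39 and 5.48 by A_51_P499683, and at 7.45, 6.75, 7.16 and 7.53 against 7.20, 7.68, 7.01 and 7.64 by A_55_P2025840. Mrp4-null sample 2 was the highest of its group at the first of these probes and the lowest at the other, and the groups overlapped at both.

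Spred3, on chromosome 7, had the lowest p of the 9 genes. Its probe A_55_P2898399 had a log2 signal of 6.78, 6.54, 6.68 and 6.64 under the knockout label and of 6.35, 6.42, 6.41 and 6.61 on the WT arrays. WT sample 4 reached into the range of the arrays labelled Mrp4-null. The difference was 0.21 (SE 0.09) or 1.16-fold, and it did not pass the test (limma adjusted p = 0.748). The other probe, A_66_P108005, differed by 0.05 (SE 0.18), with Mrp4-null sample 2 at 7.64 and the other 7 arrays between 6.82 and 7.18.

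The phosphatases that switch off ERK had lower means under the knockout label, and neither passed the test. Dusp4, on chromosome 8, encodes a nuclear phosphatase, and its probe A_51_P518051 had a log2 signal of 8.02, 8.68, 8.13 and 8.11 under the knockout label and of 8.48, 8.29, 8.90 and 8.43 on the WT arrays. Of the arrays labelled Mrp4-null, 3 were below all WT arrays and sample 2 was not. The difference was -0.29 (SE 0.18, 95% interval -0.70 to 0.11, limma adjusted p = 0.977), and it was -0.44 without Mrp4-null sample 2 and -0.17 without WT sample 3. Dusp6, on chromosome 10, encodes a cytoplasmic phosphatase that is specific for ERK, and its promoter is the one shown above. The probe A_51_P502614 had a log2 signal of 10.75, 10.65, 10.67 and 11.01 against 10.73, 11.01, 10.64 and 11.01, so that the groups spanned nearly the same range. The difference was -0.08 (SE 0.12, limma adjusted p = 1.00).

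No probe of the ETS factors at the end of the pathway passed the test, and the mean was higher under the knockout label for Etv4 and lower for Etv5. Etv4, on chromosome 11, was read by A_55_P1959521 at 7.80, 7.72, 7.78 and 7.85 under the knockout label and at 7.21, 7.64, 7.65 and 7.63 on the WT arrays. The groups did not overlap, and WT sample 1 stood well below the other WT arrays. The difference was 0.26 (SE 0.11, limma adjusted p = 0.768), and without WT sample 1 it was 0.15. The other Etv4 probe, A_55_P2078780, had a log2 signal of 10.04, 10.44, 10.12 and 10.03 against 9.58, 9.72, 10.18 and 10.01, a difference of 0.29 (SE 0.15, limma adjusted p = 0.914) with overlapping groups, and of 0.19 without WT sample 1. Etv5, on chromosome 16, was read by A_55_P2037454 at 12.36, 11.96, 12 and 12.23 against 11.96, 12.37, 12.08 and 12.37. Both groups covered the same range, and the difference was -0.06 (SE 0.13, limma adjusted p = 1.00).

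Array brightness moved with some of these probes. Over the 8 arrays, the normalized signal of the 13 probes was related to the 75th percentile of the array with a Pearson r between -0.859 and 0.787, and 4 of these 13 relations had a permutation p under 0.05 after Benjamini-Hochberg adjustment, whereas 0 had for Spearman's rho. The 4 were the Dusp4 probe (r = -0.859, exact adjusted p = 0.0259; rho = -0.81, exact adjusted p = 0.0708), Spred1 A_52_P637689 (r = -0.858, exact adjusted p = 0.0259; rho = -0.81, exact adjusted p = 0.0708), Spred3 A_66_P108005 (r = -0.822, exact adjusted p = 0.0142; rho = -0.881, exact adjusted p = 0.0696) and Spred2 A_51_P499683 (r = -0.781, exact adjusted p = 0.0166; rho = -0.786, exact adjusted p = 0.0726). Without Mrp4-null sample 2 and WT sample 3, r was -0.606, -0.51, -0.621 and -0.77, respectively. Within the 4 arrays of each genotype, too few for a test here, r had the same sign in both genotypes for 11 of the 13 probes. Such relations were not particular to these genes, since 28.1% of all retained probes had an r of at least 0.7 in size, and 5 of the 13 did.

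The rest of the pathway was followed in a list of 94 genes chosen for their role, of which 86 were retained with 129 probes. Of these probes, 0 were called changed by limma or by the local pooled error test, where 0.545% of all probes were called by limma and 0.626% by the local pooled error test. An unadjusted p under 0.05 was reached by 11 probes, 6 higher and 5 lower under the knockout label, which was 8.53% of the list against 6.46% of all probes. Their differences ran from -0.63 to 0.59 on the log2 scale, with a median of -0.04. No probe was matched to Ksr2, and Erbb3, Erbb4, Tgfa, Dusp9, Fosl1, Egr2 and Myc had no retained probe.

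Group by group, the medians lay between -0.14 and 0.08 on the log2 scale, and no probe was called changed in any group. The 16 growth factor genes retained, read by 26 probes, had a median log2 difference of -0.14, and 2 probes were lower at an unadjusted p under 0.05. The 13 receptor genes, read by 22 probes, had a median of 0.08, with 1 probe higher and 1 lower at that level. The 15 genes of adaptors, Ras proteins and their regulators, such as Nf1, Rasa1 and Cbl, had a median of -0.05 over 21 probes. Of these probes, 0 reached that level, and their differences all lay between -0.24 and 0.04. The 10 genes of the RAF, MEK and ERK kinases and the kinases they act on had a median of -0.04 over 19 probes, with 2 higher at that level. The 14 other inhibitors had a median of -0.01 over 17 probes, with 1 higher, and the 5 Sprouty partners had a median of -0.03 over 7 probes, of which 2, both of Cav1, were lower. The 13 genes listed as targets had a median of 0.00 over 17 probes, with 2 higher at that level, of Ier2 and Junb. Besides genes that are switched on by growth factors, such as Ier2, the list holds the transcription factor genes Elk1, Elk3, Elk4 and Srf. Its median is therefore not a readout of ERK-induced genes alone.

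**Figure D4:**
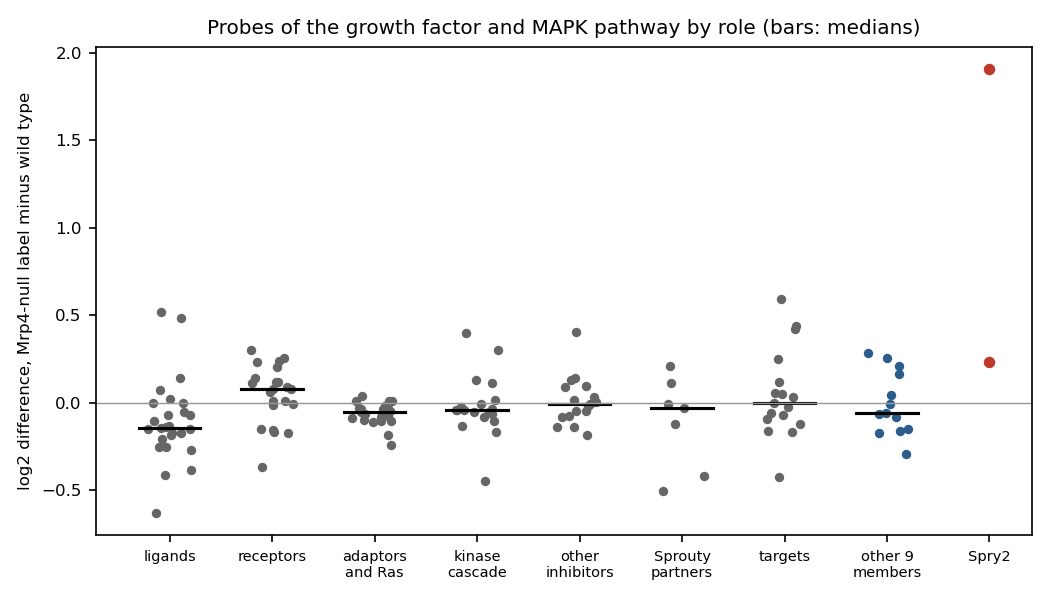
Log2 difference (arrays labelled Mrp4-null minus WT) of the 129 retained probes of the pathway list by role, beside the 13 probes of the 9 other feedback genes and the 2 Spry2 probes, with bars at the median of each role. All probes of the list lie between -0.63 and 0.59, below the Spry2 probe at 1.91.

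The pathway genes with the lowest p were Ier2, Cav1 and Rps6ka1. Ier2, an immediate early gene that is switched on by growth factors, had a log2 signal of 9.40, 9.35, 9.35 and 9.63 under the knockout label and of 8.87, 9.02, 8.65 and 8.82 on the WT arrays. The groups did not overlap, and the difference was 0.59 (SE 0.11) or 1.51-fold, with a limma adjusted p of 0.0597. Over the alternatives the adjusted p ran from 0.0435, with an intensity trend and robust variances in limma, to 0.891 in the local pooled error test. Ier2 was called only in the first of these, where no other pathway gene was. Cav1, which encodes the caveolar coat protein caveolin-1, a partner of Sprouty proteins, was lower on average by 0.50 (SE 0.14, limma adjusted p = 0.313) and 0.42 (SE 0.16, limma adjusted p = 0.616) at its 2 probes A_65_P07350 and A_55_P2126662. Caveolin-1 is abundant in endothelium, and the endothelial markers given above overlapped between the groups, with the lowest array labelled Mrp4-null, and their part in the Cav1 values was not tested. Rps6ka1, which encodes the ERK-activated kinase RSK1, was higher on average by 0.40 (SE 0.11, limma adjusted p = 0.349) and 0.30 (SE 0.09, limma adjusted p = 0.442) at A_55_P2139256 and A_51_P150044.

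Spry2 lies on the same chromosome as Abcc4. In the order of tested genes on chromosome 14, Abcc4 was the 11th gene from Spry2, and of the 10 genes between them 1 was called changed. Of the 20 tested genes closest to Spry2, 10 on each side, the only one called was Gpc6, which encodes glypican-6, a heparan sulfate proteoglycan of the cell surface. Its log2 signal was 5.50 ± 0.18 on the arrays labelled Mrp4-null and 6.44 ± 0.15 on the WT arrays (SD, n = 4 each), so that it fell by 0.93 (SE 0.12, limma adjusted p = 0.0102). That call was lost under several other settings, among them without WT sample 4 (adjusted p = 0.0548) and in the local pooled error test (adjusted p = 0.192).

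None of the 5 nearest tested genes on either side was called, which were Rbm26, Ndfip2, 5430440P10Rik, 4930449E01Rik and 9330188P03Rik on one side and Trim52, Slitrk1, Slitrk6, Slitrk5 and 4930524C18Rik on the other. Next to Spry2, Trim52 was higher on average by 0.29 on the log2 scale (SE 0.09, limma adjusted p = 0.470). Tgds, 8 genes from Spry2 and singled out after its values were seen, resembled Spry2 in that its probes disagreed. The Tgds probe A_51_P251402 was at 9.03 ± 0.55 and 7.29 ± 0.65 (SD, n = 4 each), a difference of 1.74 (SE 0.36) that did not pass limma (adjusted p = 0.123) but passed the local pooled error test (adjusted p = 1.28e-11), and its other probe differed by -0.12. On the side away from Abcc4, the nearest called gene was Pcdh17, 33 genes away, and 15 called genes of the chromosome lay on that side. On the whole of chromosome 14, 20 of 558 tested genes were called, or 3.58%, against 0.652% of the tested genes on all chromosomes. For each of the other 9 feedback genes, 0 of the 20 nearest tested genes were called. With 0.652% of tested genes called on all chromosomes, a count of 0 does not set them apart from other genes.

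**Figure D5:**
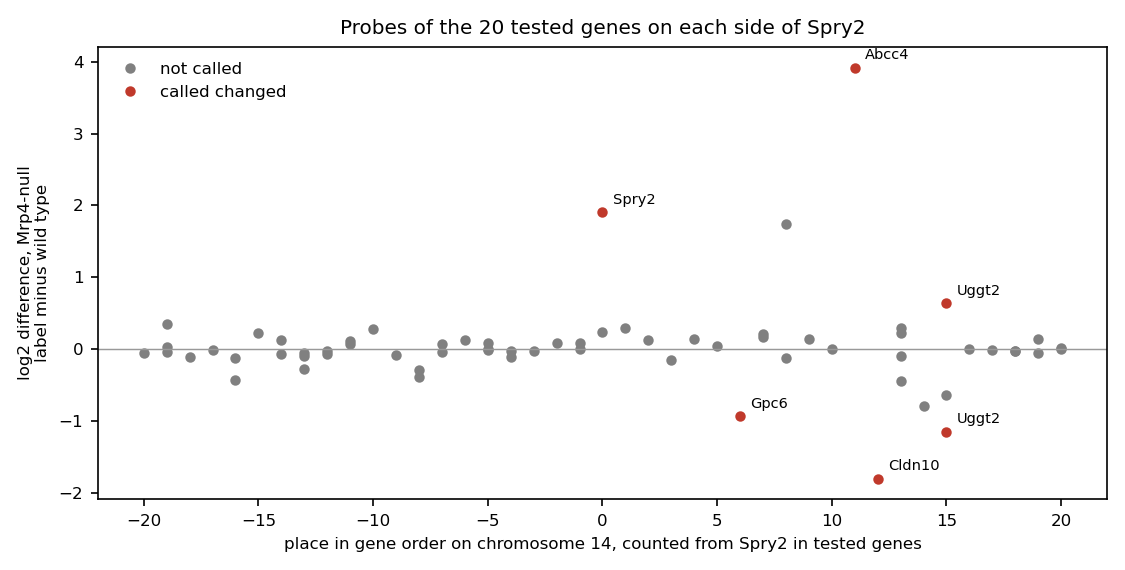
Log2 difference (arrays labelled Mrp4-null minus WT) of each probe of the 20 tested genes on either side of Spry2, by place in the gene order of chromosome 14 with Spry2 at zero, and with red points for probes called changed. Within this range, called probes other than that of Spry2 lie on the side of Abcc4, whose point is at 3.92, and none lies on the other side. Beyond this range, 15 called genes of the chromosome lie on the side away from Abcc4.

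The probes whose pattern over the 8 arrays was most like that of the Spry2 probe A_51_P445153 were found by the root mean square distance after each probe was centred on its own mean, a choice that uses the same contrast. The nearest was E2f2, a cell cycle transcription factor gene, at a distance of 0.25 on the log2 scale and with a difference of 1.96. Masp2, a complement protease gene, followed at 0.26 with a difference of 2.08, and Kdf1 and 1700123L14Rik stood at 0.35 each with differences of 1.46 and 1.61. E2f2, Masp2 and Kdf1 are on chromosome 4 and 1700123L14Rik is on chromosome 6.

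Fgf17, a fibroblast growth factor gene on chromosome 14 that was not in the pathway list, was also among the 5 nearest, but its distance rests on WT values near background. Its probe A_55_P2744027 had a log2 signal of 4.51, 4.08, 3.73 and 4.35 on the arrays labelled Mrp4-null, where it was well above background, and of 1.64, 1.68, 2.45 and 1.68 on the WT arrays, where it was not well above background. The lower limit of detection therefore allowed only a bound, and Fgf17 was at least 1.37-fold higher on the arrays labelled Mrp4-null (measured means 4.17 and 1.86). This is a description, since Fgf17 was chosen for following the same contrast and was retained through the group where it is high.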

How the data were processed

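RNA from whole retina of 4 Mrp4-null and 4 WT mouse samples was hybridized to 1 array each. For every array the authors deposited the signal intensity of each spot, which Agilent Feature Extraction 11.0.1.1 (the submitters' processing notes) had background-subtracted and detrended, and a table of the series that holds the mean intensity per probe, without log2 or normalization between arrays. Dim probes approach background, which compresses or inflates their differences, and the number of arrays limits the precision.

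Spots marked as outliers (78 to 143 per array, none of them a member probe) were left out. Probes were averaged as log2 processed intensity and retained when they were well above background on all measured arrays of a genotype (3 or more measured there and 2 or more in the other), which left 37085 of 56605. Retained values were quantile-normalized and fitted with limma 3.58.1 in R 4.3.3 (lmFit and eBayes, genotype as the only term, Benjamini-Hochberg over all retained probes). Intervals are 95%. The scripts were tested on simulated data. Accessions matched the gene table of GRCm38.p6 for 32994 probes (58.3%). The array design names another build, so that this table gave names, chromosomes and gene order only. Each probe was kept apart. The study's local pooled error test was rewritten for this work.

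The members, the gene lists and the tests were chosen with earlier results of these data known. Named were all member probes, Abcc4, pathway genes called or among the 3 lowest p, the 5 tested genes on either side of Spry2 and the 5 patterns nearest to Spry2, with exceptions stated. Relations with array brightness were tested over all 40320 orders of the 8 arrays, two-sided. The alternatives were other normalizations, background corrections, filters, tests and thresholds, the deposited table, a replicate block and each array left out. Sample numbers did not pair the samples, and 0 of 4 arrays labelled Mrp4-null correlated best with the WT array of the same number.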

Additional observations from a re-analysis of the deposited data

Results flagged for a closer look

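In 32 groups of 4 arrays, a sample was sought that stood apart from the other 3 by Dixon's ratio of its gap to the whole range, for which chance gives about 1 in 20, and 2 groups held one. At the Etv4 probe A_55_P1959521, WT sample 1 was at 7.21 and the other WT arrays at 7.63 to 7.65 (ratio 0.966). At the Spred1 probe A_51_P119857, WT sample 3 was at 11.17 and the others at 10.94 to 10.98 (ratio 0.84). WT sample 3 is also 1 of the 2 dimmer arrays. Over the 8 arrays, the Etv4 probe was related to the 75th percentile of the array with r = 0.0489 (exact adjusted p = 0.932; rho = 0.286, exact adjusted p = 0.501) and the Spred1 probe with r = -0.55 (exact adjusted p = 0.242; rho = -0.5, exact adjusted p = 0.255). Without the 2 dimmer arrays, r was 0.223 and 0.0768.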

How the results depend on the processing

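None of the 13 member probes other than those of Spry2 passed the test in any of the 22 settings run. The difference of the Spry2 probe A_51_P445153 was 1.82 to 2.00 with an array left out, 1.13 with the normexp correction, whose offset compresses dim probes by construction, and otherwise up to 2.08, and that of A_52_P368532 was 0.19 to 0.27 throughout. Under normexp the differences of E2f2 (1.20), Masp2 (1.21), Kdf1 (0.93), 1700123L14Rik (0.84), Gpc6 (-0.44), Fgf17 (0.32), Cav1 (-0.21 at A_65_P07350 and -0.23 at A_55_P2126662) and Rps6ka1 A_51_P150044 (0.16) were also smaller. Fgf17 and Gpc6 were not called under normexp or with the replicate block. The pathway list had 1 probe called, Ier2, with an intensity trend and robust variances, 0 to 0 with an array left out, and 0 in every other setting run.

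Over all probes, 202 calls became 71 with the replicate block, 106 at a fold change of at least 2, 128 without the 2 dimmest arrays (an alternative chosen after seeing the data), and 117 to 188 with an array left out, with 131 without WT sample 2, 129 without WT sample 3 and 117 without WT sample 4. Among the 20 genes beside Spry2, the count fell from 1 to 0 with normexp, with the replicate block, at a minimum fold change of 2 and without WT sample 4, and it was 0 to 1 with an array left out. With no filter it was 0 because more genes were tested and the 20 nearest changed, while Gpc6 was still called (adjusted p = 0.0291). In the local pooled error test the gene counted was Tgds in place of Gpc6. The cause was not tested. The median of the 13 other member probes was -0.040 to 0.029 with an array left out, and the highest was without WT sample 3.

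Differences near zero changed sign. Spred1 A_51_P119857 was at 0.00021 with normexp, at 0.024 without the 2 dimmest arrays, and at -0.047 to 0.048 with an array left out (positive without Mrp4-null sample 1, Mrp4-null sample 4 or WT sample 3). With an array left out, Spry4 was at -0.19 to 0.070 (positive without Mrp4-null samples 2 or 3 or WT sample 2), Spred1 A_52_P637689 at -0.36 to 0.029 (positive without WT sample 3) and Spred3 A_66_P108005 at -0.14 to 0.13 (negative without Mrp4-null sample 2). The small differences of Dusp6 (-0.16 to -0.023) and Etv5 (-0.14 to -0.00026) kept their sign, and so did Spred2 A_51_P499683 (0.014 with normexp) and Spred2 A_55_P2025840 (-0.28 to -0.0013). The Spred3 probe was at -0.092 without the 2 dimmest arrays.

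In the check of pairing, the correlation of same-numbered deviations was -0.69 to 0.41 over the 4 pairs. The block changed no call of the 13 other member probes. Naming probes by a gene-name column was not run, because the files used here have none, and normexp used the median spot signal in place of the mean.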
